A study of Mus musculus with 4 samples.

Results

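Cd209a conventional dendritic cells without Epcam, known as type 2 conventional dendritic cells (cDC2), made up 442 of 10925 cell barcodes from the mouse brain after stroke. They were chosen by unique molecular identifier (UMI) counts in each barcode, so the genes of the rule are not results here. A barcode had at least 200 genes and at most 10% mitochondrial UMIs, at least 2 UMIs of Cd209a, Clec10a and Mgl2 together, and at least 30 UMIs of H2-Aa, H2-Ab1 and H2-Eb1 together. It had no Epcam, Xcr1 or Clec9a UMI, fewer than 3 of the maturation genes Ccr7, Fscn1, Ccl22, Cacnb3 and Il4i1, fewer than 10 C1q UMIs, and fewer than 3 T cell and fewer than 3 B cell receptor complex UMIs. C57/BL6 mice had undergone transient middle cerebral artery occlusion (tMCAO), a model of ischemic stroke in which a large brain artery is blocked for a time and then reopened. CD45high cells, which are mostly blood-derived leukocytes, were sorted from the ischemic hemispheres at 5 or 14 days and sequenced with droplet 3' chemistry. Each day had 2 libraries, all animals of both days had the occlusion, and there was no sham group among the libraries. The labels do not give the number, age or sex of the animals behind a library, so p-values measure the spread between these libraries, which may be technical.

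Conventional dendritic cells take up antigen, cut it into peptides and show them to T cells on major histocompatibility complex (MHC) molecules. The cDC2 subset is known for presentation on MHC class II to CD4+ T cells, whereas the cDC1 subset is known for presenting captured antigen on MHC class I to CD8+ T cells. Type I interferons signal through the receptor Ifnar1 and Ifnar2 to a transcription factor complex that holds Stat2 and Irf9 and binds a DNA motif called the interferon-stimulated response element in the promoters of its target genes.

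The 4 libraries held 85 and 93 members on day 5 and 99 and 165 on day 14, with 396755, 398136, 503899 and 938777 member UMIs. A member had a median of 4275 to 5600 UMIs by library, and no member barcode occurred in more than 1 library. Of the members, 50 had exactly 2 UMIs of the 3 lectin genes, the lowest number allowed, and 87 barcodes met every other condition with 1 such UMI. There were 18 members with 30 to 39 class II UMIs and 24 barcodes just outside with 20 to 29. The C1q limit alone left out 95 and 135 barcodes on day 5 but 15 and 21 on day 14, and 1 Epcam UMI alone left out 29 and 26 on day 5 but 2 and 8 on day 14. The lectin limit went the other way: 64 and 51 otherwise matching barcodes on day 5 and 92 and 138 on day 14 had no such UMI. Among the members, 4, 1, 5 and 0 cells per library had at least 4 of 6 plasmacytoid dendritic cell markers, and these 10 cells stayed in unless stated.

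Genes outside the rule were checked against the label. Flt3, the receptor for a dendritic cell growth factor, had 141 and 136 UMIs for every 1000000 member UMIs (CPM) on day 5. Its day 14 values were 89.3 and 85.2 CPM, against at most 17.1 in Ly6c2 monocytes and at most 5.01 in T and NK cells. Zbtb46, a transcription factor restricted to conventional dendritic cells among myeloid cells, was low in the members, at 17.6 to 37.7 CPM, and at most 4.91 in Ly6c2 monocytes. Sirpa, a signal receptor of cDC2 and monocytes, ranged from 128 to 169 CPM, against 4.96 to 32.3 in Xcr1 Clec9a dendritic cells (cDC1). Irf4, the transcription factor most tied to cDC2, was sparse at 12.6 to 25.1 CPM. The members therefore carried Flt3, Zbtb46 and Sirpa, all at low levels. The 9 monocyte markers summed to 3077, 2813, 6503 and 7150 CPM in the order of the libraries. Only 50, 62, 27 and 38 members had neither a Ly6c2 nor an Fcgr1 UMI. The 12 cDC2 markers outside the rule summed to 49179 and 51827 CPM on day 5 and to 40147 and 39139 on day 14. Nearly all of that sum was Cd74, a class II chaperone, so it says little about the other markers. Among the 12, Cd24a was lower than in cDC1. The label was kept as a name for the rule, and it does not set apart cells with monocyte genes. Red cell genes were at or near 0, and the 9 T and NK cell markers summed to 35.3, 226, 97.2 and 138 CPM.

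The first question was how abundant these cells were on each day. They were 3.39% and 2.70% of filtered barcodes on day 5 and 3.84% and 7.15% on day 14, a mean of 3.04% ± 0.491 (SD, n = 2) against 5.49% ± 2.34 (SD, n = 2). Exact 95% binomial intervals per library, which cover counting error only, ran from 2.18 to 4.18% on day 5 and from 3.13 to 8.28% on day 14. The libraries of the 2 days did not overlap, and a two-sided exact permutation test gave p = 0.333, the smallest p that 2 libraries against 2 allow. Without day 14 replicate 2 the difference of 2.45 points was 0.792. When every barcode was thinned to 2000 UMIs before the rule was applied, the means were 5.17% and 5.37% and the libraries overlapped (exact permutation p = 1.0). As a share of 4 dendritic cell classes, the members were 52.1% ± 6.09 on day 5 and 49.1% ± 2.37 on day 14 (SD, n = 2 each), and after thinning 68.7% ± 3.48 and 55.6% ± 1.62. The share of cells by day was thus not settled by these libraries.

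**Figure D1:**
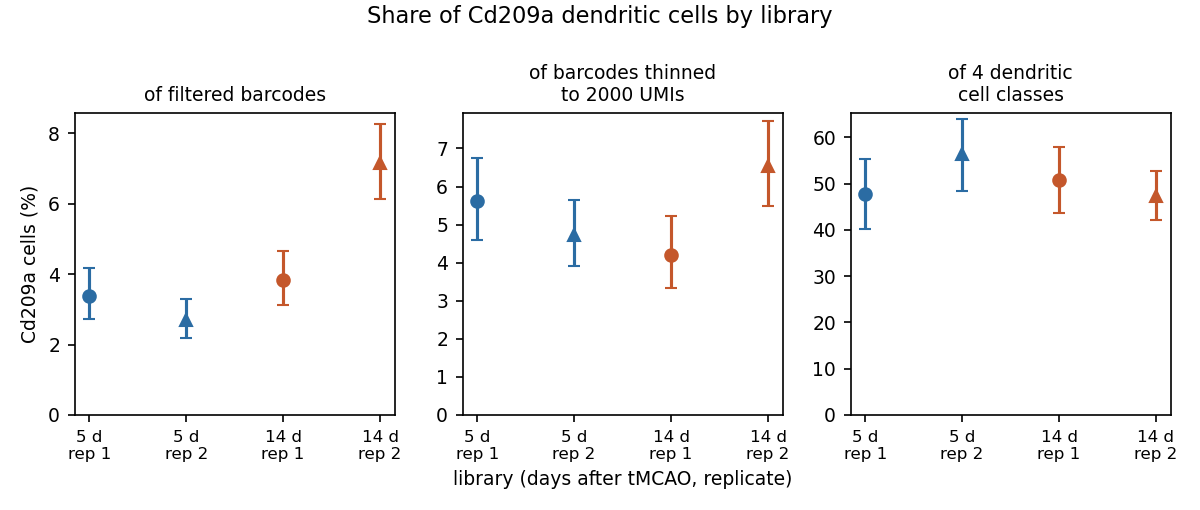
Share of Cd209a cells in each library (%), with exact 95% binomial intervals: of filtered barcodes, of barcodes thinned to 2000 UMIs, and of 4 dendritic cell classes. Blue marks day 5 and orange day 14, circles replicate 1 and triangles replicate 2. Only day 14 replicate 2, at 7.15%, stands clear of the other libraries in the left panel.

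The second question was which genes differed between the days within these cells. UMIs were summed over the members of each library and tested with edgeR's quasi-likelihood test, with Benjamini-Hochberg adjustment over 4819 genes. At an adjusted p below 0.05, 224 genes differed (4.65% of those tested): 145 were higher on day 14 (3.01%) and 79 were lower (1.64%). Genes of type I interferon response rose, as did part of the MHC class I pathway and of the monocyte markers. Among those that fell were Ltc4s and Hpgds, enzymes of lipid mediator synthesis, the lipid droplet gene Plin2, and part of the adhesion and lysosomal genes. The median log2 fold change over all genes tested was -0.02. Because each day came from its own libraries, day cannot be told apart from differences in how the libraries of the 2 days were made or counted.

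Of the 26 type I interferon stimulated genes that were tested, out of 29 listed, 25 rose from day 5 to day 14, against 3.01% of all genes. Their median log2 fold change was 1.98. Isg15, a ubiquitin-like protein that is attached to other proteins, had 187 and 129 CPM in the day 5 libraries, against 719 and 933 later. Its log2 fold change was 2.39 ± 0.19 (SE, edgeR quasi-likelihood adjusted p = 3.48e-06). Irf7, the transcription factor that amplifies interferon production, was at 176 and 124 CPM and then at 673 and 885, a log2 fold change of 2.38 ± 0.20 (edgeR adjusted p = 3.97e-06). Ifi27l2a rose from 435 and 535 CPM to 1968 and 2258, by 2.12 ± 0.13 on the log2 scale (edgeR adjusted p = 3.37e-07). For these 3 genes both day 14 libraries lay well above both day 5 libraries.

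The antiviral enzymes and sensors of the list moved the same way. Rsad2, which makes a chain-terminating nucleotide, went from 46.7 and 10.5 CPM to 107 and 170. Oas1a and Oas3, which sense double-stranded RNA, rose by 1.96 ± 0.30 and 2.24 ± 0.37 on the log2 scale. Mx1, a GTPase that traps viral nucleoproteins, was at 15.6 and 0 CPM and then at 42.1 and 71.0, and missed the threshold without day 14 replicate 2 (edgeR adjusted p = 0.108). Ifih1 and Ddx58, the cytosolic RNA sensors, rose by 1.27 ± 0.32 and 1.56 ± 0.35. Usp18, which removes Isg15 and restrains the receptor, rose by 2.01 ± 0.28. Stat2, part of the complex that interferon activates, at 31.1, 31.6, 63.1 and 71.0 CPM, was the member that missed the threshold (edgeR adjusted p = 0.0542). Of the 25 genes, 6 share more than 10% of their 3' end with other genes, and for these (among them Ifit3, Oas1a, Ifi209, Ifi213 and Phf11d) the counting could have split reads.

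**Figure D2:**
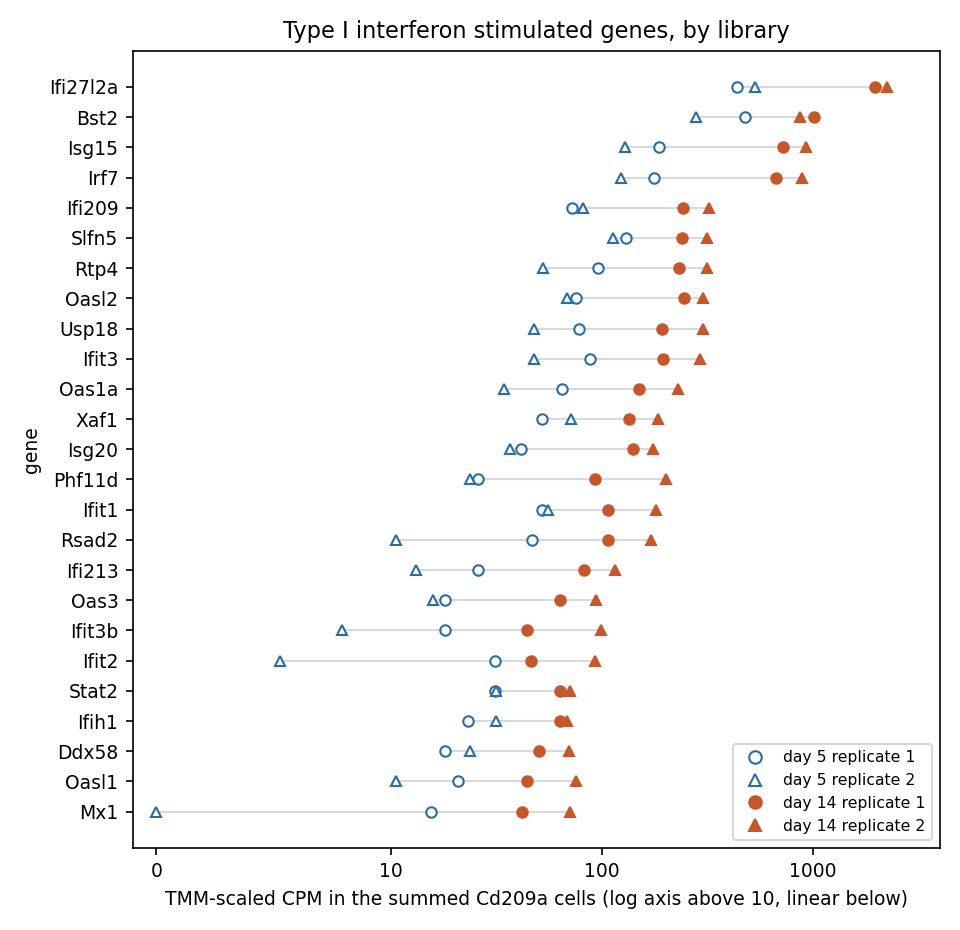
TMM-scaled CPM of 25 type I interferon stimulated genes in the summed Cd209a cells of each library. Open blue symbols are day 5 and filled orange symbols day 14, circles replicate 1 and triangles replicate 2, and each grey line spans the 4 libraries. Both day 14 libraries lie to the right of both day 5 libraries in every row.

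The promoters of these genes were read for the core of the interferon-stimulated response element, the motif bound by the complex described above. The motif searched was GAAANNGAAA on either strand (TTTCNNTTTC on the other), with overlapping matches kept, in the 250 bases before each start in RefSeq (GRCm38.p6). Of the 25 genes that rose, 20 had an entry, and 10 of these held a match. Over all 145 genes higher on day 14, 27 of 95 with an entry held one (28.4%), against 3 of 61 genes lower on day 14 (4.92%), 4.22% of genes tested and 2.98% of all promoters in the table. A match is a run of letters and was not tested as a binding site. The 4 matched promoters with the highest day 14 level are printed 5′ to 3′ on the gene's strand, with matches in capitals and the last base next to the start. Bst2, the tetherin that holds virions at the cell surface, lies at chr8:71537473-71537722 (minus strand), and its matches begin 130 and 124 bases before the start. Isg15 lies at chr4:156200819-156201068 (minus strand), with matches that begin 78, 72 and 66 bases before the start. Slfn5, a Schlafen family gene, lies at chr11:82951852-82952101 (plus strand), with 1 match at 155 bases, and Ifit3, which binds to other Ifit proteins, at chr19:34583279-34583528 (plus strand), with matches at 156 and 122 bases.
Bst2: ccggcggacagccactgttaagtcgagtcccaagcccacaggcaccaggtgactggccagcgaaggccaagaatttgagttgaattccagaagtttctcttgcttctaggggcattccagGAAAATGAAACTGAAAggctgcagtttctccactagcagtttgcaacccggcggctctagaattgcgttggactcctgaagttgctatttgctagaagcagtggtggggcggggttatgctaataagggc
Isg15: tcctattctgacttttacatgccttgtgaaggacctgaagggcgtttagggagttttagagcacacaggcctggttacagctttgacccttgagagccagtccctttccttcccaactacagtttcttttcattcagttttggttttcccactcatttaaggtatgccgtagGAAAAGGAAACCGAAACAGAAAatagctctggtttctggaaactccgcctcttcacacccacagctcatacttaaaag
Slfn5: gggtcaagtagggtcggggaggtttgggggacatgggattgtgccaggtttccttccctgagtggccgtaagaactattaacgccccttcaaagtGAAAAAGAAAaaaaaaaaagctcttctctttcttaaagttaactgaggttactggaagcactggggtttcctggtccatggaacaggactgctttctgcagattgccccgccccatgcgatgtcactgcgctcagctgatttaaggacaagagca
Ifit3: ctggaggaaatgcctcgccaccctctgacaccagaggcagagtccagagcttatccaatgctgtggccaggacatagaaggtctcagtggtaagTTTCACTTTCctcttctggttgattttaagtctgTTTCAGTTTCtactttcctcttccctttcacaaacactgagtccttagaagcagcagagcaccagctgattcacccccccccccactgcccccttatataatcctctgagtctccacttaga
In Bst2 and Isg15 the matches overlap and form 1 longer run of GAAA repeats, whereas the 2 matches of Ifit3 are separate and lie on the other strand. Bst2 rose from 477 and 280 CPM to 1012 and 875, Slfn5 by 1.21 ± 0.20 and Ifit3 by 1.87 ± 0.28 on the log2 scale. Irf7, which rose about as much as Isg15, had no match in this window.

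The rise was seen across single members rather than in a few. After each member was thinned to 2000 UMIs, the interferon genes gave a median of 3 and 2 UMIs per cell on day 5 and 11 and 13 on day 14. The interquartile ranges were 1 to 7 and 1 to 5 on day 5, and 6 to 19 and 7 to 25 on day 14. There were 15 of 84 and 16 of 90 cells with no such UMI on day 5 and 0 of 97 and 0 of 165 on day 14. The highest cell had 51 and 21 UMIs on day 5 and 50 and 105 on day 14, so the top of the range in day 5 replicate 1 reached that of day 14 replicate 1.

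**Figure D3:**
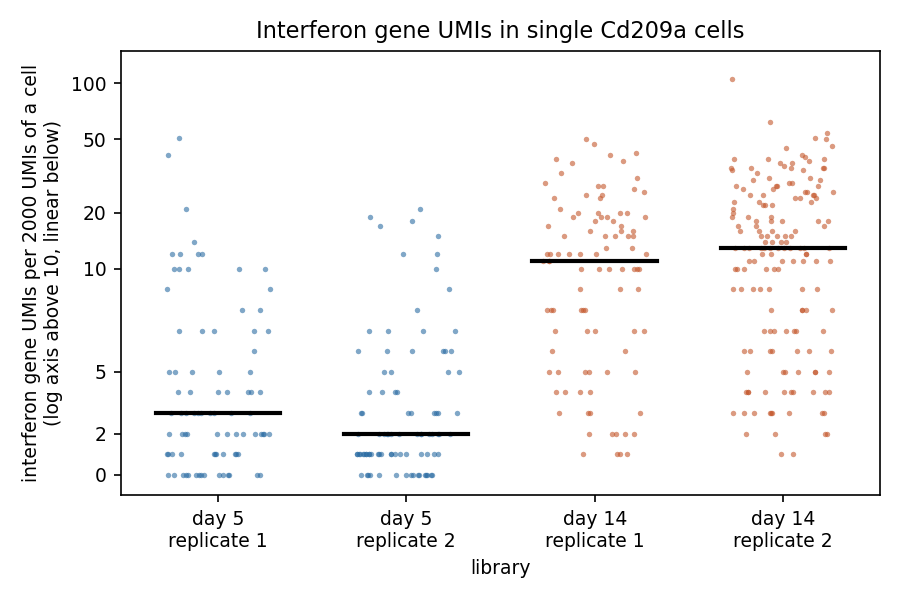
UMIs of type I interferon stimulated genes per 2000 UMIs in single Cd209a cells, by library. Each point is 1 cell, moved sideways at random for visibility, and black bars are medians (3, 2, 11 and 13). Blue is day 5 and orange day 14.

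Monocyte markers rose in the same libraries. Their summed level went from 3077 and 2813 CPM to 6503 and 7150, and 4 of 8 tested markers rose, against 3.01% of all genes. Ly6c2, a surface antigen of classical monocytes and of some T cells, went from 148 and 97.6 CPM to 967 and 942, by 2.96 ± 0.18 on the log2 scale (edgeR adjusted p = 3.01e-07), although 21.8% of its 3' end is shared with other genes. Plac8 rose by 1.73 ± 0.12, Fcgr1, the high-affinity IgG receptor, by 1.52 ± 0.27, and Ms4a6c by 0.82 ± 0.11. Scaled together with cDC1, Plac8 was at 1211, 974, 3435 and 3908 CPM in the members, a large part of the summed level. In cDC1 it was at 1701, 1704, 2783 and 3844 CPM, and 2 of 6 tested monocyte markers rose there, against 39 of 3690 genes. The summed level is thus no measure of monocyte content. Ccr2 (635, 659, 749 and 726 CPM), Cd14, Fn1 and F13a1 did not pass the test. Without the cells that had a Ly6c2 or Fcgr1 UMI, a setting added after the data were seen, 50, 62, 27 and 38 members were left, and 8 of 16 tested interferon genes passed. Because Ly6c2 and Fcgr1 are themselves among the genes that rose, that choice of cells depends on the outcome and supports nothing here. Without the 10 cells with plasmacytoid markers, 26 of 26 interferon genes rose. The part of cells with monocyte genes in the rise of the interferon genes was not tested.

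Other classes in the same libraries are given side by side. Isg15 differed between the days by 2.01 on the log2 scale in Xcr1 Clec9a cells, by 2.00 in Ly6c2 monocytes and by 2.57 in T and NK cells. Irf7 differed by 1.55, 1.88 and 1.65. The median of the interferon list was 1.63, 1.73 and 1.60 in these 3 classes, with 5 of 21, 9 of 27 and 12 of 24 genes called, against 1.22%, 2.33% and 3.01% of all genes tested there. Marker lists moved there too. In Ly6c2 monocytes 5 of 7 neutrophil markers fell, and in T and NK cells 5 of 9 T and NK cell markers fell and 1 rose. The day values of these classes may thus not cover like cells. In mature dendritic cells, of which day 5 held 11 and 8 cells, the median was -0.26 and of 16 genes none rose and 1 fell, against 1.21% of all genes called.

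Genes induced by interferon gamma, a cytokine of T and NK cells, rose in part: 4 of 10 tested passed, against 3.01% of all genes higher on day 14. Tgtp2 and Ifi47, GTPases that attack pathogen vacuoles, rose by 1.95 ± 0.32 and 1.61 ± 0.29, and Gbp2 and Irgm1 by 1.49 ± 0.33 and 1.08 ± 0.23 on the log2 scale. Tgtp2 shares 63.3% of its 3' end. Gbp2 missed the threshold without day 5 replicate 1 or day 14 replicate 2 (edgeR adjusted p up to 0.0927), and DESeq2 called Ifi47 alone of the 4. Slfn1, another Schlafen gene, was among the 12 highest changes of the comparison, from 5.18 and 7.91 CPM to 149 and 180, a log2 fold change of 4.63 ± 0.36 (edgeR adjusted p = 2.55e-06). Ly6i, a Ly6 family gene, was at 15.6 and 7.91 CPM and then at 111 and 85.7. Apod, a lipid-binding apolipoprotein, was at 5.18 and 5.27 CPM and then at 67.3 and 66.5.

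In antigen presentation, 9 of 17 tested MHC class I pathway genes rose, against 3.01% of all genes, and none fell, with a median log2 fold change of 0.65. B2m, the light chain of class I, rose from 3175 and 3447 CPM to 4896 and 5486, a log2 fold change of 0.65 ± 0.09 (edgeR adjusted p = 0.000625). H2-K1, a classical heavy chain, rose by 0.63 ± 0.12, and H2-Q7, a nonclassical one, from 38.9 and 34.3 CPM to 103 and 113. Tap1, which carries peptides into the endoplasmic reticulum, rose by 0.77 ± 0.19, and Psmb9 and Psmb10 of the immunoproteasome by 0.73 ± 0.16 and 0.73 ± 0.18. Tap1 missed the threshold without 1 library (day 5 replicate 1, day 5 replicate 2 or day 14 replicate 2) (edgeR adjusted p up to 0.163). DESeq2 called 2 of the class I genes.

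The MHC class II pathway went the other way where it changed: 3 of 10 tested genes outside the rule fell, against 1.64% of all genes. None rose, and the median log2 fold change was -0.11. Cd74, the chaperone that keeps class II molecules from binding peptides early, fell from 47641 and 51903 CPM to 40288 and 39188, a log2 fold change of -0.32 ± 0.06 (edgeR adjusted p = 0.00373). H2-Oa, part of an inhibitor of peptide exchange, fell from 448 and 485 CPM to 252 and 219. Lgmn, a lysosomal protease, had 500 and 425 CPM and then 187 and 287. Both day 5 libraries lay above both day 14 libraries for each, although DESeq2 did not call Cd74 (adjusted p = 0.195). The class II genes of the rule have a floor of 30 UMIs per cell and are not reported as results.

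Among ligands and receptors, a part of the genes passed. Of 10 C-type lectins 2 rose and of 10 chemokines 2 rose, against 3.01% of all genes. Of 10 chemokine and egress receptors 1 fell, and of 17 growth factor and cytokine receptors 2 fell, against 1.64% of all genes. Cd40, which receives help from T cells, rose from 36.3 and 31.6 CPM to 69.4 and 90.2. It was the only one called of 11 costimulatory and inhibitory ligands tested, beside 4.65% of all genes. Cd80 was at 33.7, 26.4, 25.2 and 20.3 CPM. Clec4a3 and Clec2d, C-type lectins, rose by 1.57 ± 0.29 and 1.24 ± 0.32 on the log2 scale. The monocyte-attracting chemokine Ccl2 rose from 18.1 and 15.8 CPM to 94.6 and 46.2, and Ccl9 from 467 and 551 to 700 and 790. The chemokine receptor Ccr1 fell from 270 and 274 CPM to 98.8 and 148, a log2 fold change of -1.10 ± 0.20 (edgeR adjusted p = 0.00412). Il1r2, a decoy receptor for interleukin-1, fell from 262 and 311 CPM to 147 and 166. Ifngr1, a chain of the interferon gamma receptor, fell from 713 and 804 CPM to 454 and 503. Nfil3 was the only called gene of 17 dendritic cell transcription factors, near the 4.65% of all genes called. It was at 49.2 and 36.9 CPM and then at 77.8 and 103. Il1r2 and Ifngr1 missed the threshold without day 5 replicate 2 (edgeR adjusted p = 0.0863 and 0.0836). Cd40, Clec2d and Nfil3 missed it without that library or without day 14 replicate 2, with edgeR adjusted p up to 0.215, and Clec2d also without day 5 replicate 1 (0.165). DESeq2 called Clec4a3 and Ccr1 but not Cd40, Clec2d, Ccl2, Ccl9, Il1r2, Ifngr1 or Nfil3.

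Several gene groups gave no call with edgeR in all 4 libraries, although leaving out 1 library called up to 3 of their members (NF-kappa B genes without day 14 replicate 1). Of all 4819 genes tested, 747 were at an unadjusted edgeR p below 0.05. None of 17 NF-kappa B genes passed, beside 4.65% of all genes, with 4 at an unadjusted p below 0.05 and 0 called by DESeq2. None of 9 cell cycle genes passed (1 unadjusted, 0 by DESeq2), nor did any of 10 glycolysis and hypoxia genes (3 and 0), 4 Toll-like receptor genes (1 and 0) or 4 trophic factors (0 and 0). Of 6 cytokines none passed and 0 were below an unadjusted 0.05, while DESeq2, which tested more genes, called 1.

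The genes that fell the most included enzymes of lipid mediators. Ltc4s, leukotriene C4 synthase, went from 41.5 and 81.7 CPM to 6.31 and 7.89, a log2 fold change of -3.03 ± 0.47 (edgeR adjusted p = 0.00131). Hpgds, the hematopoietic prostaglandin D synthase, went from 77.8 and 52.7 CPM to 10.5 and 13.5. Cd34, a sialomucin of progenitors and of some dendritic cells, had the lowest fold change of the 12 named, from 54.4 and 63.3 CPM to 6.31 and 6.76, or -3.11 ± 0.42. It was detected in 14.1 and 21.5% of members on day 5 and in 3.03 and 3.64% on day 14. Cd34 was also listed as a marker of Epcam-positive dendritic cells, which were 60 and 29 on day 5 and 3 and 6 on day 14. Without members with a Cd34 UMI, 50 genes were lower, 48 of them shared with the main result. The part of such cells in these falls was not tested. Kcnn4, a calcium-activated potassium channel, fell from 197 and 108 CPM to 31.5 and 38.3. Ssx2ip, Acads and Acp5 also fell. Genes among the 12 were named only if the libraries of the 2 days did not overlap, so that order is no further result. Ltc4s missed the threshold without day 5 replicate 2 (edgeR adjusted p = 0.0897), Ssx2ip without day 5 replicate 1 (0.323) and Acads without day 14 replicate 2 (0.294), and DESeq2 did not call Ssx2ip or Acads.

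Lipid handling genes moved in both directions: 4 of 10 tested rose and 1 fell, against 3.01% and 1.64% of all genes. Plin2, which coats lipid droplets, fell from 397 and 388 CPM to 92.5 and 139, a log2 fold change of -1.72 ± 0.19 (edgeR adjusted p = 9.7e-05). Hilpda, a hypoxia-induced inhibitor of lipid droplet breakdown that is not among the 10, fell from 85.5 and 111 CPM to 12.6 and 45.1, and its log2 fold change of -1.58 was -2.92 without day 14 replicate 2, while DESeq2 did not call it (adjusted p = 0.186). The cholesterol exporter Abcg1 rose from 23.3 and 31.6 CPM to 114 and 93.6. Abca1, another exporter, was at 5.18 and 2.64 CPM and then at 31.5 and 23.7, and it missed the threshold without 1 library, whichever but day 14 replicate 1, (edgeR adjusted p up to 0.334). Fabp5, a fatty acid carrier, was at 18.1 and 21.1 CPM and then at 39.96 and 162, and without day 14 replicate 2 its log2 fold change of 2.49 was 1.03 (edgeR adjusted p = 0.438). Apoe, a lipid carrier made by macrophages, rose from 1177 and 1390 CPM to 2044 and 1804. With every barcode thinned to 2000 UMIs its log2 fold change of 0.58 was -0.016 and did not pass. The rule was applied after thinning, so the members changed too, from 85, 93, 99 and 165 cells to 104, 116, 76 and 129.

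Adhesion molecules fell where they changed, 5 of 14 tested, against 1.64% of all genes. Itgax, the CD11c integrin chain, fell from 228 and 245 CPM to 92.5 and 107, a log2 fold change of -1.23 ± 0.19 (edgeR adjusted p = 0.00106). Its partner chain Itgb2 followed with -0.80 ± 0.19, and the tetraspanins Cd81 and Cd9 with -1.31 ± 0.31 and -0.76 ± 0.17. Of 16 lysosomal genes 3 fell, against the same 1.64%. They were the proteases Ctsa and Ctsd, by log2 fold changes of -0.95 ± 0.14 and -0.86 ± 0.16, and the lipase Lipa, by -0.98 ± 0.23. Cd81 missed the threshold without day 5 replicate 2 or day 14 replicate 2 (edgeR adjusted p up to 0.12), Ctsd without day 5 replicate 1 (0.081), and Lipa without either day 5 library (up to 0.095). DESeq2 called Itgax, Ctsa and Ctsd of these genes. Microglial markers moved with these genes: their summed level went from 1124 and 1138 CPM to 643 and 508. Of 5 tested markers 1 fell, against 1.64% of all genes. At an unadjusted edgeR p below 0.05 there were 4 of the 5, against 747 of all 4819 genes. P2ry12, Olfml3 and Fcrls were at 12.6 to 73.8 CPM and did not pass after adjustment. The median C1q count was 2, 2, 2 and 1 UMIs per member. The part of microglial or macrophage RNA in these falls was not tested.

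**Figure D4:**
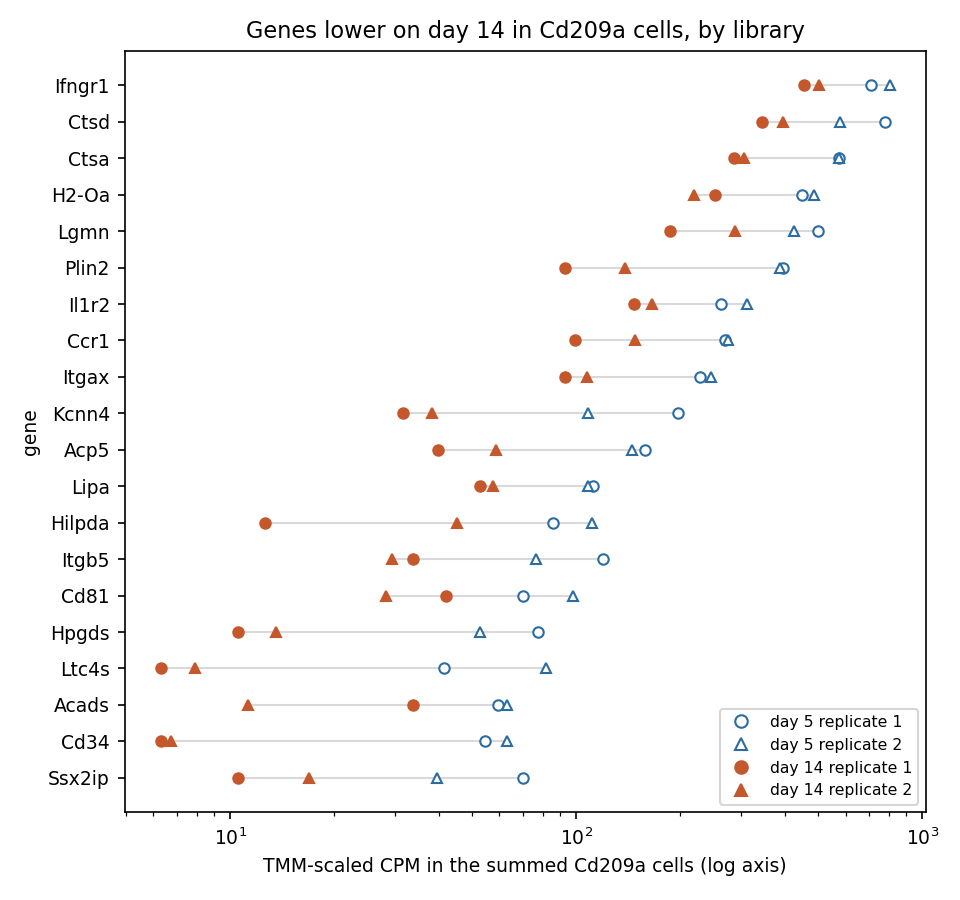
TMM-scaled CPM (log axis) of 20 genes that were lower on day 14 in the summed Cd209a cells: genes among the 12 with the lowest fold change, and called genes of the gene lists other than Cd74. Symbols are as in the plot of interferon genes. Both day 14 libraries lie left of both day 5 libraries in every row, which was a condition for the genes among the 12.

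Osteopontin, the secreted protein named in the title of the series, is encoded by Spp1. Its level in the members was 282, 388, 177 and 592 CPM in the order of the libraries, and the days overlapped. The log2 fold change was 0.25 ± 0.37 (edgeR adjusted p = 0.814), and without day 14 replicate 2 it was -0.91 (edgeR adjusted p = 0.00238), while without day 14 replicate 1 it was 0.86. After thinning, which also changed the members, it was -0.57. Its direction thus depended on the library kept. At 1000 UMIs per cell, Spp1 was detected in 12.9, 15.1, 15.2 and 27.9% of members. T and NK cells had it in 12.9, 8.24, 11.4 and 20.7% and cDC1 in 13.6, 8.82, 11.3 and 27.2%. Its detection was thus not particular to the members, and the source of this signal was not tested. Of the osteopontin receptors tested, the integrin chain Itgb5 fell from 119 and 76.5 CPM to 33.6 and 29.3, although DESeq2 did not call it (adjusted p = 0.109). Cd44 (101, 84.4, 122 and 101 CPM), Itga4 (49.2, 36.9, 71.5 and 56.4) and Itgb1 (114, 129, 86.2 and 121) did not pass.

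The highest fold changes were mostly in copies of other genes and are uncertain. Of the 12 highest named genes, 8 were such copies: Rps12-ps3, Rpl9-ps6, Rpl7a-ps5, Rpl27-ps3, Ftl1-ps1, Psme2b, Rpl10-ps3 and Tpm3-rs7. Rpl9-ps6, a copy of a ribosomal protein gene, went from 13 and 26.4 CPM to 755 and 577, while Rpl9 itself was at 2581, 2500, 2715 and 2603. The copy shares 94.2% of its 3' end with other genes. Its log2 fold change was 5.06 in the members, 5.82 in Xcr1 Clec9a cells, 5.91 in Ly6c2 monocytes and 5.76 in T and NK cells. Rpl10-ps3 likewise differed by 3.08, 2.82, 3.08 and 2.74 in these classes, and Rpl10 by 0.09 in the members. Of the 145 genes higher on day 14, 56 share more than 10% of their 3' end (38.6%), against 9 of 79 lower genes (11.4%) and 11.3% of genes tested. With those genes and annotated pseudogenes left out, 143 of 4274 genes were called, 81 higher and 62 lower.

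The members were then set against cDC1, here 244 cells with an Xcr1 or Clec9a UMI, in all 4 libraries with library as a block. Of 5263 genes tested, 1373 differed (26.1%), 770 higher in the members (14.6%) and 603 lower (11.5%). Of 10 C-type lectins tested 7 were higher in the members and 1 lower, and of 11 chemokines 7 were higher and none lower. The chemokine Ccl9 had 453, 535, 684 and 781 CPM in the members and 13.5, 21, 22.2 and 22.3 in cDC1, a log2 fold change of 5.00 ± 0.18 (edgeR adjusted p = 2.3e-14). The lectins Clec4a1 and Clec4n were higher by 5.01 ± 0.40 and 4.88 ± 0.39, and the latter by 8.02 without day 14 replicate 2, the sole library with a cDC1 UMI of it. Fcor, a regulator of Foxo1, was higher by 5.04 ± 0.39. Cd209d, a further DC-SIGN relative, ranged from 25.6 to 179 CPM in the members and from 0 to 2.34 in cDC1, and Clec4b1 from 50.3 to 80.1 against 0 to 6.75. The signal regulatory genes Sirpb1a and Sirpb1c were also among the 8 highest, but share 38.0% and 37.7% of their 3' ends.

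Genes of both subset lists differed between the classes, beside 14.6% of all genes higher in the members and 11.5% lower. All 7 tested cDC1 markers outside the rule were lower in the members. Irf8, which cDC1 need to develop, was at 167 to 359 CPM in the members and at 1681 to 2454 in cDC1. Snx22 had a log2 fold change of -5.42 ± 0.31 and Tlr3, the endosomal receptor for double-stranded RNA, one of -4.33 ± 0.32. Of the lowest 8, Gcsam ranged from 0 to 2.23 CPM in the members and from 73.4 to 132 in cDC1, and the scavenger receptor Cd36 from 0 to 5.03 against 49.4 to 87.8. The log2 fold changes of Rab7b, Rasgrp3, Cxcr3 and Fcrla were -3.77 ± 0.20, -3.96 ± 0.46, -3.77 ± 0.38 and -3.61 ± 0.48. Of 11 cDC2 markers outside the rule, 8 were higher in the members, Cd7 by 3.98 ± 0.22 and Sirpa by 3.48 ± 0.26, while Cd24a, at 27.7 to 72.4 against 378 to 585 CPM, and Flt3 were lower.

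**Figure D5:**
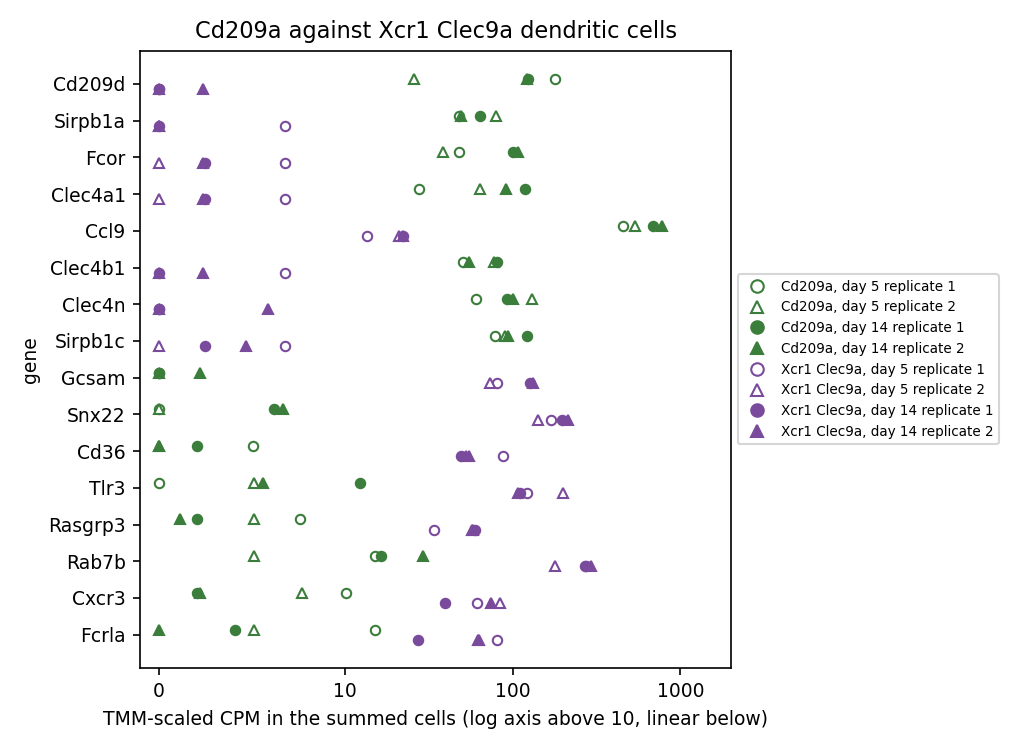
TMM-scaled CPM of the 16 genes named for the comparison of Cd209a cells (green) with Xcr1 Clec9a cells (purple), in each of 4 libraries. Open symbols are day 5, filled symbols day 14, circles replicate 1 and triangles replicate 2. The classes do not overlap in any row, and the genes were chosen to keep the same order of classes in every library.

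Signaling and cytokine genes separated the subsets, in a comparison where 14.6% of all genes tested were higher in the members and 11.5% lower. Of 17 NF-kappa B genes, 14 were higher in the members and none lower, led by the inhibitors and feedback genes: Nfkbiz by 3.26 ± 0.22, Tnfaip3 by 2.67 ± 0.23 and Nfkbia by 2.65 ± 0.12. Il1b, encoding interleukin-1 beta, was at 2520, 2913, 2205 and 3271 CPM in the members and at 844, 860, 771 and 1066 in cDC1. Tnfsf9, the ligand of the costimulatory receptor 4-1BB, was higher by 4.40 ± 0.27. Of 17 growth factor and cytokine receptors, 10 were higher and 1 lower, the former with Csf1r, the receptor of macrophage colony-stimulating factor, by 2.74 ± 0.19. Monocyte markers were higher in 6 of 8, including Ly6c2 by 1.92 ± 0.19 and Fcgr1 by 1.73 ± 0.17. Cell cycle genes were lower in 20 of 21 tested, with a median log2 fold change of -1.81 against -0.01 over all genes. Stmn1, which binds tubulin, was at 30.8 to 76.9 CPM in the members and at 173 to 430 in cDC1. In the MHC class I pathway 8 of 17 genes were lower in the members and 3 higher, the latter near the share of all genes. DESeq2 called 680 genes in this comparison, and without day 14 replicate 2 edgeR called 889.

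Epcam-positive dendritic cells, 98 cells with 2 or more Epcam UMIs and no Xcr1 or Clec9a UMI, were 60 and 29 on day 5 but 3 and 6 on day 14. They were compared with the members in the day 5 libraries alone. Of 4136 genes, 145 differed (3.51%), 78 higher in the Cd209a cells without Epcam (1.89%) and 67 lower (1.62%). The residual spread rests on 1 degree of freedom, and DESeq2 called 19. Lyz2, lysozyme of myeloid cells, was at 3727 and 3232 CPM in the members and at 551 and 377 in the Epcam-positive cells, a log2 fold change of 2.87 ± 0.11 that DESeq2 called as well. Ccl9 was higher by 3.63 ± 0.28 and Ly6c2 by 2.79 ± 0.45, with 148 and 98.0 CPM against 23.7 and 8.19. Ccl17, which attracts Ccr4-bearing T cells, was uneven between the libraries, at 288 and 58.3 CPM in the members and at 0 and 8.19 in the Epcam-positive cells. Emp3, Emilin2, Stmn1 (23.2% of its 3' end shared) and Clec4a3 were higher by 2.49 ± 0.27 to 2.90 ± 0.50. Monocyte markers were higher in 4 of 7 tested, and the transcription factors Zeb2 and Cebpb by 1.63 ± 0.31 and 1.56 ± 0.21.

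Lower in the members than in Epcam-positive cells were Itgae, the CD103 integrin chain that binds E-cadherin, at 33.8 and 29.1 against 169 and 197 CPM, and Id2, an inhibitor of E proteins, at 244 and 275 against 501 and 1302. Pglyrp1, which binds bacterial peptidoglycan, had a log2 fold change of -2.96 ± 0.59, and Ppm1j, Sult1a1, Anpep, Rtn1 and Ffar2 ranged from -2.73 ± 0.44 to -1.72 ± 0.47. Of the class II pathway, H2-DMb2 and H2-Oa had log2 fold changes of -1.32 ± 0.15 and -1.03 ± 0.14, and Il1b, at 2601 and 3012 against 4028 and 3766 CPM, was lower too.

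Whether the day effect itself differed between the members and cDC1 was tested as an interaction over both classes. Of 5263 genes 7 passed (0.133%), 5 with a more positive day effect in the members (0.095%) and 2 with a more negative one (0.038%), and no gene of the type I interferon list was among them. Of the 7, Ifi205, Ifi211 and Ifitm2 belong to interferon-inducible families but are not on that list. DESeq2 called 0, with 37 genes at an unadjusted p below 0.05 against 343 for edgeR. Plin2 fell in the members and was at 149, 199, 188 and 170 CPM in cDC1, a difference between the day effects of -1.71 ± 0.31 (edgeR adjusted p = 0.017). Plac8 differed by 0.81 ± 0.12 (edgeR adjusted p = 0.00632). The remaining 5 genes are given with the flagged results.

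At 1000 UMIs per cell, Ly6c2 was detected in 10.6% and 6.45% of members on day 5 and in 29.3% and 29.1% on day 14 (23.5%, 15.1%, 53.5% and 60.0% without thinning). In cDC1, with medians of 5765 to 7062 UMIs per cell, the thinned shares were 0, 2.94, 19.4 and 16.8%, so Ly6c2 detection rose there too. T and NK cells, which also express Ly6c2, had it in 25.8, 30.6, 26.1 and 28.3% at the same depth, close to the members on day 14. Members with and without a Ly6c2 UMI at 2000 UMIs per cell were compared as a description, with no test, after leaving out cells with plasmacytoid markers. A cell without such a UMI is not shown to lack the gene. Counted with the plasmacytoid-marker cells kept, 14, 10, 41 and 71 members had one. That share, 16.7, 11.1, 42.3 and 43.0%, was itself higher on day 14. The day 5 levels with Ly6c2 thus rest on at most 14 and 10 cells, and low CPM there on few UMIs. Cd74 was lower in those with Ly6c2 in 4 of 4 libraries, at 29455 to 38167 CPM against 40375 to 52006. H2-Oa was at 55.6 to 153 CPM with Ly6c2 and at 277 to 581 without. Plac8 was higher with Ly6c2 in 4 of 4 libraries, and so was the interferon list, at 3045, 4222, 9722 and 10732 CPM against 2239, 1406, 5375 and 7037.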

How the data were processed

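Single-cell 3' libraries of sorted CD45high cells were analysed, 2 per day, with 9288054 to 13610119 UMIs and 2313 to 3486 barcodes each. The deposited matrices hold whole-number UMI counts per gene and barcode. Cell Ranger 3.0.1 and Seurat 2.3.4 and the builds GRCm38 and mm10 are named per the submitters' processing notes, without their roles. Per the file headers, the day 5 matrices carry a software line that the day 14 matrices lack. The members and the gene lists were chosen with earlier results of these data known. No doublet caller was run, and the limits on lineage genes were the sole guard. Limits for the comparison classes were set after their cell numbers were seen.

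UMI counts of the members were summed per library and tested with edgeR 4.0.16 (TMM scaling, filterByExpr, quasi-likelihood test, Benjamini-Hochberg threshold 0.05). SE is the absolute log2 fold change over the square root of F. CPM are TMM-scaled where a gene was tested. DESeq2 1.42.0 was an alternative. Intervals and floors cover counting error only. Class comparisons used libraries with 20 or more cells of both classes.

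Named genes were the 12 highest and 12 lowest by log2 fold change between days (8 and 8 between classes, up to 6 and 6 for the interaction) among called genes outside the cell rule with a mean of 50 CPM or more, no overlap of libraries and a named symbol, plus up to 4 per gene list with 20 CPM or more. Further list members that are named were picked for their role after their values were seen. Shared 3' ends are the percent of 75-base windows in the last 400 bases found in another GENCODE M21 gene. Of 405 listed genes, 401 were found in the files, and the others were not analysed here. The replicate numbers pair no libraries by the labels. A few genes that the rule selects are not reported here.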

Additional observations from a re-analysis of the deposited data

Results flagged for a closer look

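In 7 genes the change from day 5 to day 14 differed between Cd209a cells and Xcr1 Clec9a cells, by the edgeR quasi-likelihood test of the interaction. Values are differences of log2 day effects, with the day effect of each class beside them. DESeq2 called none of the 7.

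Ifi205, an interferon-inducible DNA sensor family gene, differed by 1.79 (2.69 in Cd209a cells, 0.86 in Xcr1 Clec9a cells), and 39.4% of its 3' end is shared with other genes. Ifi211, of the same family, differed by 1.44 (2.51 and 1.08), with 76.4% shared. Lyz2, lysozyme, differed by 1.36 (0.37 and -1.10). Its level in Xcr1 Clec9a cells was 2336 CPM in day 5 replicate 1 against 645 to 778 in the other 3 libraries. Plac8 differed by 0.81 (1.73 and 0.97). Fos, an immediate early gene, differed by 0.78 (0.45 and -0.31). Plin2 differed by -1.71 (-1.72 and 0.01). Ifitm2, which restricts virus entry, differed by -0.69 (0.04 and 0.77), with 15.3% of its 3' end shared.

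For Lyz2, Fos and Ifitm2 neither class alone passed the test of the days. The difference missed the threshold when 1 library was left out for Ifi211 (day 5 replicate 2, adjusted p = 0.136), Fos (day 14 replicate 2, 0.193) and Ifitm2 (day 14 replicate 2, 0.286), and passed for Ifi205, Lyz2, Plac8 and Plin2 without any single library. Ifi205 was then 1.19 without day 5 replicate 2, and Lyz2 was 0.58 without day 5 replicate 1.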

How the results depend on the processing

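Between the days, 224 called genes became 101 with DESeq2, 139 with fewer than 3 C1q UMIs, 143 without genes of shared 3' ends, and 226 to 353 without 1 library (353 without day 14 replicate 1). With the replicate block 217 were called, and without members with a Cd34 UMI 177 were, 127 higher and 50 lower. Same-numbered libraries had deviations that correlated at 0.0245. With 2 libraries per day this cannot exclude a pairing, and the labels state none. No gene called between the days was called in the opposite direction under another setting. Against Xcr1 Clec9a cells, 1373 became 680 with DESeq2 and 889 to 1197 without 1 library. Against Epcam-positive cells, 145 became 19 with DESeq2, and leaving out a library left no residual degrees of freedom, so that was not run. The interaction gave 7, and 33 with no low-count filter, 0 with DESeq2, 3 with 4 or more lectin UMIs, and 11 to 47 without 1 library. The difference in share, 2.45 points, was -0.550 without cells with a Ly6c2 or Fcgr1 UMI, -2.97 as a share of 4 dendritic cell classes, 0.197 after thinning and 0.792 to 4.10 without 1 library. Apoe was -0.016 after thinning and -0.11 without cells with a Ly6c2 or Fcgr1 UMI, and both settings changed which cells were members. Spp1 was -0.57 after thinning and ranged from -0.91 to 0.86 without 1 library. Cd44 was -0.000384 with fewer than 3 C1q UMIs, and Itgb1 was 0.26 after thinning, 0.21 without cells with a Ly6c2 or Fcgr1 UMI and -0.48 to 0.024 without 1 library. The cause of these shifts was not tested. The settings on C1q up to 30, on Ly6c2 or Fcgr1, on plasmacytoid markers and on shared 3' ends were chosen after seeing the data, and the choice of cells by Ly6c2 or Fcgr1 depends on genes that themselves rose. The interferon list had 19 to 26 calls without 1 library and 17 with DESeq2. Low UMI totals limit genes under about 20 CPM.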
